A study of Homo sapiens with 18 samples.

Results

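Adavivint was given to THP-1 cells carrying an empty lentiviral vector, and the expression of all genes was compared with that of the same vector line without the drug. The comparison used 6 of the 18 libraries of the series, 3 with Adavivint and 3 without, chosen by their labels and not by any measured value. THP-1 is an established human monocytic line from an acute myeloid leukaemia. Per the labels' protocols, both groups were transduced with lentivirus and selected with puromycin at 2 µg/mL for 24 hours or more, beginning 48 hours after the virus was added, and the treated group then received Adavivint at 1 µM for 36 hours. The genotype label of these cells is WT, and no label says whether the untreated cells received the drug's solvent or whether the libraries of a group came from separate cultures. The p-values therefore measure the spread between these libraries, which may be technical. The other THP-1 groups, with an S100A9 overexpression vector with and without Adavivint, shared the statistical fit and give a second drug comparison without shared libraries. The rest of the series, an S100A9 knockdown in U937 cells, was not used except for 1 count of genes silent in untreated U937 cells.

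Adavivint, also called lorecivivint, was developed to dampen Wnt signalling and is reported to inhibit the CDC-like kinase CLK2 and the kinase DYRK1A. CLK and DYRK kinases phosphorylate the serine- and arginine-rich (SR) proteins that choose splice sites, and CLK transcripts are themselves spliced under the control of these proteins. The Wnt pathway acts through β-catenin, which a complex of APC, AXIN, GSK3 and casein kinase marks for destruction and which otherwise joins TCF/LEF factors at target genes such as MYC. THP-1 carries a fusion of the KMT2A gene, and such fusions keep HOXA genes and MYC active in leukaemic monoblasts.

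The libraries held 49.7 to 61.4 M counts without the drug and 41.8 to 45.2 M with it (M stands for 1e6). Although shallower, the treated libraries had more genes with at least 10 counts, 14711 to 14941 against 13824 to 13908. No pair of replicates agreed within sampling noise, so each library counts as 1 replicate. Untreated library 1 stood apart from the other untreated libraries, its counts giving chi-square over df values of 25.5 and 37.2 against them, where those 2 gave 12.3 against each other and treated pairs 8.56 to 11.8. The first principal component carried 89.6% of the variance of all 12 THP-1 libraries and the second 2.18%. Levels are given as CPM (counts per 1e6 counts of the library after scaling), so a level is a share of the library, and the total RNA per cell was not measured. In such bulk samples fewer cells of a kind and less RNA per cell cannot be told apart. Values are means ± SD over the 3 libraries of a group, or 1 value per library in the order of the replicate numbers.

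Adavivint moved most of the transcriptome. A gene is said to have changed where its adjusted p in edgeR's quasi-likelihood test was below 0.05. Of 15403 genes tested, 6814 were higher with the drug (44.2%) and 6329 were lower (41.1%), and the remaining 2260 did not pass. At least 2-fold changes were reached by 3967 higher genes (25.8%) and 3342 lower genes (21.7%). Changes passed in 85.3% of all genes, and in 85.1% the 2 groups of libraries did not overlap. A single call or a lack of overlap therefore says little, and sizes, levels and direction are what follows. The median log2 fold change over all genes was 0.06 and the median size of a change was 0.96, close to 2-fold. Without untreated library 1 the counts were 6825 higher and 6278 lower.

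The direction of the change went with the starting level. Genes that rose at least 2-fold had a median of 0.600 CPM before treatment, and genes that fell at least 2-fold had a median of 28.4 CPM. Among the 12129 genes at 1 CPM or more without the drug, 4560 rose and 5975 fell, with a median log2 fold change of -0.18. By at least 2-fold, 1788 of these rose and 3026 fell. At 4-fold the numbers in these expressed genes were 431 and 1064. Over all tested genes the order was the other way, with 2254 genes at least 4-fold higher and 1243 at least 4-fold lower. A gene that is nearly silent without the drug passes the count filter only if it rises, so this excess of rises is set in part by the filter. A cut at 1 CPM without the drug works the other way, since it leaves out genes that rose from lower levels. Of 2322 protein-coding genes at 100 CPM or more without the drug, 30.4% rose and 60.5% fell, with a median log2 fold change of -0.39.

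**Figure D1:**
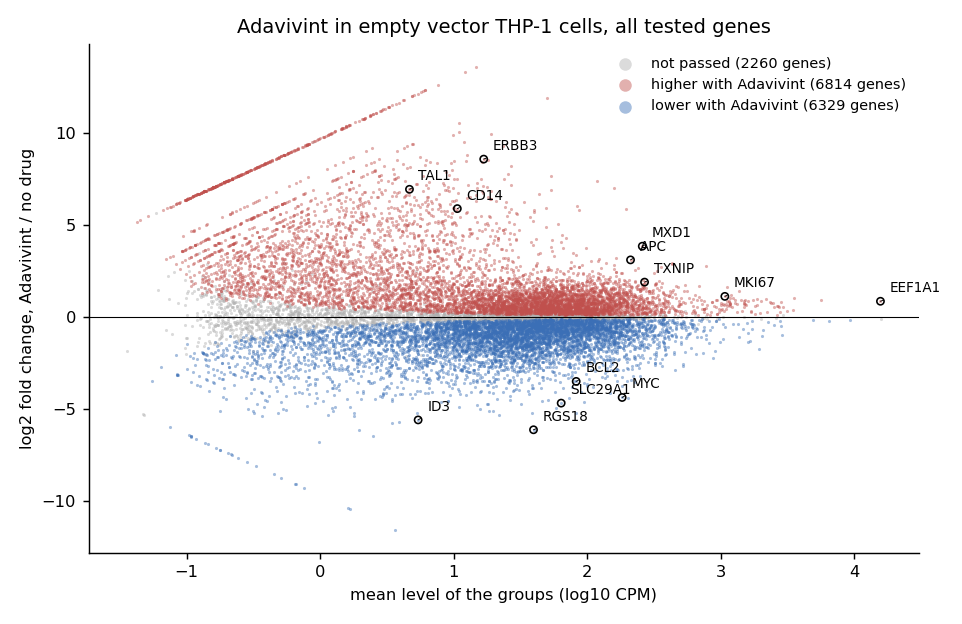
Each point is 1 of the 15403 tested genes, placed by the mean level of the 2 groups (log10 CPM, horizontal) and by its log2 fold change with Adavivint (vertical); red and blue points changed and grey points did not pass. The large rises lie at low levels, the straight lines at the upper left are genes with 0 to a few counts in 1 group, and the marked genes MYC, BCL2, SLC29A1 and RGS18 lie well below 0.

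The kinases the drug is described to bind were first examined. CLK1 read 48.1, 64.4 and 70.2 CPM without the drug and 164, 163 and 176 CPM with it (log2 fold change 1.46, SE 0.10, adjusted p = 8.73e-09). CLK3 rose from 108 ± 13.1 to 299 ± 8.76 CPM (log2 fold change 1.47, SE 0.08, adjusted p = 2.59e-10), and CLK4 from 20.9 ± 0.759 to 62.4 ± 3.50 CPM (log2 fold change 1.57). The values of each of these 3 genes with the drug lay above all values without it. CLK2 stood apart from them: it read 67.9, 74.0 and 79.1 CPM without the drug and 74.7, 79.4 and 89.7 CPM with it, the groups overlapped, and its log2 fold change of 0.14 did not pass (adjusted p = 0.0797). With DESeq2 in place of edgeR the CLK2 change passed, at 0.19 (adjusted p = 0.0209), and it also passed without untreated library 3 (0.19, adjusted p = 0.0281). DYRK1A rose from 108 ± 1.82 to 236 ± 7.92 CPM (log2 fold change 1.13, SE 0.04, adjusted p = 1.02e-11). Among its relatives DYRK4 rose from 13.9 to 56.7 CPM and DYRK3 fell from 40.8 to 15.7 CPM, and DYRK1B went from 1.73 to 2.06 CPM and did not pass. Of the 8 DYRK and HIPK kinases tested, 5 rose and 2 fell.

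Genes of the splicing machinery moved in both directions. The SR factors were 10 higher and 4 lower of 16 tested, and the median log2 fold change was 0.39. SRSF7, which binds exonic enhancers and also serves in mRNA export, read 298, 277 and 266 CPM without the drug and 56.4, 55.9 and 55.4 CPM with it and fell the most (log2 fold change -2.33, SE 0.05, adjusted p = 1.54e-13). SRSF4 rose from 163 to 298 CPM and SRSF11 from 429 to 761 CPM, while SRSF3, the smallest family member, went from 505 to 498 CPM and did not pass. Of the hnRNP genes, which often oppose SR proteins at exons, 5 rose and 13 fell of 24, with HNRNPAB falling from 262 to 52.1 CPM, HNRNPD from 593 to 169.9 CPM and PTBP2 rising from 31.2 to 98.9 CPM. Core spliceosome subunits were 13 higher and 19 lower of 36 tested, 6 of them at least 2-fold lower. EFTUD2, the GTPase of the U5 particle, fell from 223 to 66.9 CPM and PRPF19, a ubiquitin ligase of the active spliceosome, from 188 to 63.7 CPM. Gene counts do not show which exons were used, and splicing itself was not analysed here.

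Regulators of transcript elongation stood mostly on the higher side. Of 31 elongation kinases, cyclins and P-TEFb regulators, 21 rose and 7 fell, with a median log2 fold change of 0.70. P-TEFb is the CDK9 and cyclin T kinase that releases paused RNA polymerase II. CCNT1, its main cyclin, read 81.2, 74.1 and 79.0 CPM without the drug and 231, 229 and 248 CPM with it (log2 fold change 1.59, SE 0.06, adjusted p = 6.44e-12). CCNL1, a cyclin of the splicing-linked CDK11, rose from 127 to 392 CPM and HEXIM1, the inhibitor that holds P-TEFb inactive, from 59.3 to 116 CPM. AFF1, a scaffold of the super elongation complex and itself a frequent KMT2A fusion partner, fell from 255 to 69.3 CPM. For the polymerase itself, 5 subunits rose and 7 fell of 12, with POLR2A, the catalytic subunit, falling from 204 to 143 CPM (log2 fold change -0.51).

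Factors that cut and end transcripts went both ways. In the cleavage and polyadenylation list 11 genes rose and 11 fell of 23. PCF11, which takes the polymerase off the template, read 105, 99.5 and 103 CPM without the drug and 259, 258 and 293 CPM with it and rose (log2 fold change 1.40, SE 0.05, adjusted p = 8.44e-12). RBBP6, a ubiquitin ligase of the cleavage complex, rose from 148 to 491 CPM. CPSF2, a subunit of the cleavage factor that recognises the poly(A) signal, fell from 143 ± 6.35 to 29.5 ± 2.64 CPM and CPSF4 from 44.2 to 14.8 CPM. Among subunits of Integrator, the complex that cuts small nuclear and unproductive transcripts, 4 rose and 7 fell of 15, and 4 fell at least 2-fold, with INTS13 falling from 94.9 to 17.4 CPM and INTS8 from 125 to 40.2 CPM.

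Genes of the β-catenin destruction complex mostly rose, and Wnt target genes went both ways. APC, the scaffold of the β-catenin destruction complex, read 43.2, 45.6 and 43.8 CPM without the drug and 384, 368 and 379.8 CPM with it and rose 8.53-fold (log2 fold change 3.09, SE 0.05, adjusted p = 8.19e-15). GSK3B, the kinase of that complex, rose from 106 to 266 CPM, and CTNNB1, which encodes β-catenin, from 279 to 374 CPM (log2 fold change 0.42). AMER1, which brings APC to the membrane, fell from 18.1 to 3.68 CPM. In the complex as listed, 8 members rose and 3 fell of 13. Of 13 tested Wnt target genes, 5 rose and 5 fell. Of the 9 at 1 CPM or more without the drug 2 rose and 5 fell, all 5 of these by at least 2-fold (median log2 fold change -1.38). The same cut gave 4560 higher and 5975 lower among all 12129 such genes, with a median of -0.18. The cut leaves out genes that rose from lower levels. LGR5, also a Wnt target, had no count without the drug and 2.14, 2.34 and 2.71 CPM with it. This was at least 130-fold higher, against a floor of 3 counts over the untreated group. AXIN2, the target most often used as a readout of β-catenin activity, was near the limit of measurement, at 0.816, 0.874 and 0.407 CPM without the drug and 0.333, 0.557 and 0.990 CPM with it, and did not pass (adjusted p = 0.723). ZNRF3, a ligase that removes Wnt receptors, fell from 14.7 to 3.66 CPM and PPARD, a nuclear receptor, rose from 21.8 to 49.0 CPM. CCND1 went from 6.44 to 5.91 CPM and TCF7 from 1.13 to 0.870 CPM, and neither passed. Without treated library 3 the fall of TCF7 passed, at -0.86 (adjusted p = 0.0265). The TCF/LEF factors and coactivators were 4 higher and 6 lower of 11 tested, with BCL9, which tethers coactivators to β-catenin, falling from 14.9 to 3.92 CPM.

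MYC, the listed Wnt target with the largest fall, read 369, 347 and 327 CPM without the drug and 17.2, 18.3 and 14.9 CPM with it. The groups were separated 20.7-fold with no overlap (log2 fold change -4.37, SE 0.11, adjusted p = 2.19e-13). MYC is a transcription factor that pairs with MAX at E-box DNA and drives growth genes, and the MXD proteins compete for MAX and repress the same sites. MXD1 (chromosome 2, 69897688 to 69942945, plus strand) read 32.9, 33.4 and 35.2 CPM without the drug and 475, 476 and 495 CPM with it and rose 14.3-fold (log2 fold change 3.83, SE 0.06, adjusted p = 6.80e-15). MXD4 rose from 20.4 ± 1.47 to 128 ± 6.91 CPM and MXI1 from 34.4 to 88.8 CPM, while MAX rose from 93.4 to 112 CPM and MNT, a further MAX partner that represses, fell from 30.3 to 15.6 CPM. Over the whole MYC, MAX, MXD and MLX list 7 genes rose and 4 fell of 11.

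Nucleotide synthesis genes and most ribosome biogenesis genes were lower, and any part of MYC in this was not tested. Of 24 enzymes of purine and pyrimidine synthesis tested, all 24 fell, 20 of them at least 2-fold, with a median log2 fold change of -2.01 against 0.06 over all genes. CTPS1, the CTP synthase of dividing blood cells, fell 8.41-fold (log2 fold change -3.07, SE 0.07, adjusted p = 1.79e-13). MTHFD1, which supplies folate units for purines and thymidylate, read 267, 225 and 228 CPM without the drug and 32.6, 26.6 and 28.4 CPM with it (log2 fold change -3.04, SE 0.09, adjusted p = 7.18e-13). In neither gene did a treated library come near an untreated one. Ribosome biogenesis genes followed: 7 higher and 45 lower of 55 tested, 29 at least 2-fold lower, median -1.01. NOC3L, an assembly factor of the large subunit, fell from 60.9 ± 8.67 to 7.57 ± 0.678 CPM and TCOF1, the nucleolar protein treacle that supports RNA polymerase I, from 129 ± 11.9 to 19.6 ± 2.10 CPM. The nucleolar proteins of ribosome assembly fell less, NCL (nucleolin) from 1413 to 552 CPM and NPM1 (nucleophosmin) from 1523 to 1184 CPM. Members that rose included TAF1D, a subunit of the polymerase I initiation factor, from 134 to 395 CPM, and the polymerase I subunit POLR1F, from 64.3 to 88.6 CPM.

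The E-box CACGTG, the core sequence that MYC and MXD proteins share, was looked up in promoters as RefSeq gives them for GRCh38.p14, from 250 bases before to 50 after the start. It reads the same on both strands. Of 46 ribosome biogenesis genes with a promoter entry 15 held it (32.6%), against 9.75% of 12139 tested genes with an entry and 7.43% of all 27305 promoters in the table. Of the nucleotide synthesis genes 4 of 20 held it. The 15 ribosome biogenesis genes with the motif had a median log2 fold change of -1.17 and the 31 without it -0.66. Of them, 9 and 12 were at least 2-fold lower. The whole list had 29 such genes among 55 tested. Most of its genes without a promoter entry thus fell at least 2-fold, and they are outside this comparison. For nucleotide synthesis the medians were -2.30 in the 4 with it and -1.90 in the 16 without it. Of these, 3 (75.0%) and 14 (87.5%) were at least 2-fold lower. Over all tested genes the medians were -0.09 with the motif and 0.02 without. Among genes at least 4-fold lower 12.6% held it, and among genes at least 4-fold higher 7.42%. The 100 bases before the start are shown for POLR1G, a polymerase I subunit that fell from 26.3 to 4.84 CPM, and for MTHFD1. The E-box lies close to the start in both, and they were chosen after their values were seen. It lies as close in genes not shown, such as RRP9 (5 bases before, log2 fold change -1.85) and GNL2 (3 bases after, -0.16). POLR1G and MTHFD1 are on the plus strand (chr19:45406544-45406643 and chr14:64388253-64388352), and capitals mark the E-box, whose first base is 12 and 15 bases before the start.
POLR1G: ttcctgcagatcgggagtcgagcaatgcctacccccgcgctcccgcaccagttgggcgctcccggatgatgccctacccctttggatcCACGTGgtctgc
MTHFD1: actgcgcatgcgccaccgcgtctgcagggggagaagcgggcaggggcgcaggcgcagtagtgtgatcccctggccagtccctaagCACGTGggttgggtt
These matches are descriptions of sequence, and binding of MYC or MXD1 was not measured.

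**Figure D2:**
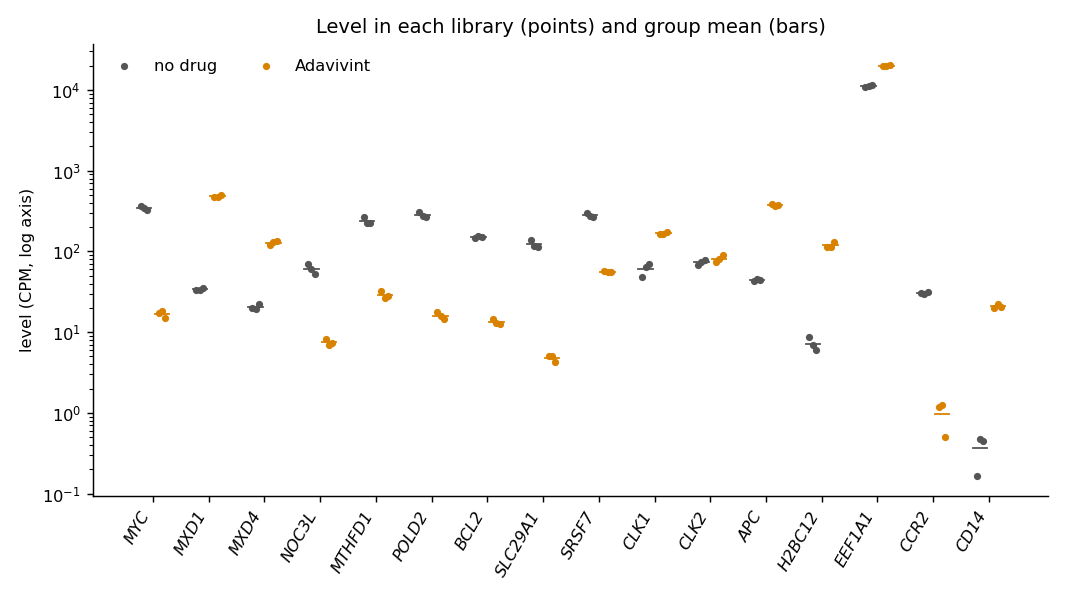
Level of 16 genes (CPM, log axis) in each of the 3 libraries without the drug (grey points) and the 3 with Adavivint (orange points), with horizontal bars at the group means. CLK2 is the only gene shown whose groups overlap, and MYC and MXD1 move in opposite directions, MYC falling from 348 to 16.8 CPM and MXD1 rising from 33.8 to 482 CPM.

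The translation machinery divided into parts that rose and parts that fell. Cytosolic ribosomal protein genes were 77 higher and 0 lower of 79 tested, nearly all by less than 2-fold (median log2 fold change 0.70), and their share of all counts went from 7.20 to 8.04% in untreated to 11.7 to 12.2% in treated libraries. RPL22, a ribosomal protein also known as a tumour suppressor of blood cancers, had the largest rise of the list, from 733 ± 15.2 to 1646 ± 79.3 CPM (log2 fold change 1.17, SE 0.05, adjusted p = 2.50e-11). The elongation factor EEF1A1 rose from 11172 to 20109 CPM, and EIF4B, which helps the initiation helicase, from 741 to 1983 CPM. EEF1A1 was named after its values were seen. Initiation factors also fell, such as EIF2B3, a subunit of the exchange factor for eIF2, from 32.8 to 7.03 CPM, so that over the whole factor list 20 rose and 21 fell of 46. The enzymes that charge tRNAs went down: 1 higher and 18 lower of 20 tested, median -1.48. VARS1, the valyl-tRNA synthetase, read 225, 201 and 195 CPM without the drug and 13.8, 15.9 and 15.1 CPM with it (log2 fold change -3.79, SE 0.07, adjusted p = 3.32e-14). SARS1, for serine, was the member that rose, from 106 to 158 CPM. Mitochondrial ribosomal proteins were 13 higher and 55 lower of 77 tested, with a median of -0.53, MRPL24 falling from 60.6 to 10.6 CPM and MRPS6 from 38.5 to 6.51 CPM.

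Genes of the histone clusters, core histones and linker histones H1, had the highest median change of the lists with at least 10 tested members. Of the 63 genes of the histone clusters on the list, 50 passed the count filter, 49 of these rose, 48 at least 2-fold, and the median log2 fold change was 3.58. Many were so low without the drug that they entered the test through their rise. The 9 members already at 1 CPM or more without the drug all rose at least 4-fold, with a median of 3.62. H2BC12, the member with the highest CPM with the drug, read 8.65, 6.95 and 5.96 CPM without the drug and 113, 112 and 132 CPM with it (log2 fold change 4.04, named after its values were seen). H3C12 rose from 0.0493 ± 0.00921 to 5.62 ± 0.407 CPM and H2BC7 from 0.0797 ± 0.0384 to 6.50 ± 0.411 CPM. Transcripts of these genes normally end in a stem-loop in place of a poly(A) tail and are made in S phase. The RNA selection of these libraries is not known here, and histone genes are near-identical copies whose reads can be shared, so single members are uncertain. SLBP, which binds the stem-loop, fell from 119 to 57.5 CPM (named after its values were seen), and its part in the rise was not tested.

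Histone promoters were looked up in the same RefSeq table. The TATA box TATAAA was found on either strand in 32 of 47 tested histone genes with an entry (68.1%), against 6.74% of all tested genes, and the box CCAAT in 40 (85.1%), against 36.4%. Both were present in 29. The windows of some members overlap, since many histone genes lie in divergent pairs. The 100 bases before the start are shown for H3C10, which rose from 0.866 to 66.6 CPM, and H3C2, which rose from 0.0627 to 3.02 CPM, because they carry the same layout; both were chosen after their values were seen. H3C10 lies on the plus strand (chr6:27809951-27810050) and H3C2 on the minus strand (chr6:26032100-26032199). Capitals mark CCAAT, with first bases 96 and 54 bases before the start, and TATAAA, 32 bases before it, at the same distances in both genes.
H3C10: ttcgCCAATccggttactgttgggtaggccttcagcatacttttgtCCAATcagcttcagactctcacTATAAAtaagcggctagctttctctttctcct
H3C2: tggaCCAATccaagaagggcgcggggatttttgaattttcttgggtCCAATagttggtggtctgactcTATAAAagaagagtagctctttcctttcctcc
This layout is a general property of histone promoters, and no factor's binding was measured.

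DNA replication genes were lower while mitotic genes were mixed. Replication and G1/S genes were 5 higher and 36 lower of 42 tested, 24 at least 2-fold lower, with a median of -1.09. POLD2, a subunit of DNA polymerase delta, read 306, 274 and 265 CPM without the drug and 17.6, 15.9 and 14.4 CPM with it and fell 17.7-fold (log2 fold change -4.14, SE 0.09, adjusted p = 6.71e-14). CDC45, part of the replicative helicase, fell from 57.9 ± 2.91 to 7.84 ± 0.246 CPM and PCNA, the sliding clamp, from 392 to 142 CPM. ORC1, of the origin recognition complex, rose from 113 to 188 CPM. Mitotic genes were 13 higher and 24 lower of 40 tested. HMMR, a spindle protein, fell from 114 ± 4.46 to 9.71 ± 0.391 CPM and MYBL2, which activates late cell cycle genes, from 218 to 67.2 CPM, but MKI67, the gene of the Ki-67 proliferation antigen, rose: it read 709, 698 and 623 CPM without the drug and 1466, 1458 and 1468 CPM with it (log2 fold change 1.11, SE 0.05, adjusted p = 3.90e-11). CENPE, a kinetochore motor, rose from 108 to 276 CPM.

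CDK inhibitors, D cyclins and G1 kinases were 5 higher and 10 lower of 16 tested. The share lower was 62.5%, near the 60.5% of protein-coding genes at 100 CPM or more without the drug. CDKN1B, the p27 inhibitor of cyclin-dependent kinases, rose from 92.8 ± 4.45 to 223 ± 13.6 CPM (log2 fold change 1.26, SE 0.06, adjusted p = 1.70e-10) and CDKN2B, the p15 inhibitor, from 4.15 to 12.4 CPM. CDKN1A, the p21 inhibitor and classical p53 target, fell from 5.33 to 3.54 CPM. CCND3, the D cyclin of many blood cells, fell from 87.9 to 31.7 CPM, and CDK4 and CDK6, its kinases, fell from 185 to 90.2 CPM and from 572 to 430.2 CPM. CCND2 went from 46.9 to 54.2 CPM, a rise whose call was lost in 5 of the alternative fits, for example without untreated library 3 (adjusted p = 0.166). Targets of p53 were 11 higher and 9 lower of 22 tested, and 8 higher and 9 lower of the 19 at 1 CPM or more without the drug: PHLDA3, which restrains AKT, rose from 0.282 to 5.16 CPM and TP53INP1 from 0.642 to 6.72 CPM, and AEN, a nuclease of p53-induced death, fell from 48.7 to 16.3 CPM. BCL2, the anti-apoptotic protein that venetoclax targets (chromosome 18, 63123346 to 63320128, minus strand), read 148, 155 and 152 CPM without the drug and 14.6, 13.0 and 12.7 CPM with it and fell 11.3-fold (log2 fold change -3.50, SE 0.08, adjusted p = 7.76e-14). MCL1, its relative, rose from 217 to 296 CPM and BMF, a pro-apoptotic partner, from 21.3 ± 2.44 to 111 ± 5.77 CPM. The pro-apoptotic BIK fell from 7.26 to 0.831 CPM. The family as listed was 7 higher and 7 lower of 14 tested.

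HOXA genes rose more often than they fell. HOXA9, a driver of this leukaemia type, read 92.4, 96.2 and 98.9 CPM without the drug and 127, 124 and 126 CPM with it (log2 fold change 0.39), and its cofactor MEIS1 fell from 71.5 to 41.9 CPM. In the cluster with its cofactors 8 genes rose and 4 fell of 13, none at least 2-fold lower. HOXA4 rose from 1.36 to 7.57 CPM and HOXA5 from 8.80 to 22.3 CPM. Myeloid transcription factors were 11 higher and 14 lower of 30 tested, and 7 higher and 13 lower of the 25 at 1 CPM or more without the drug. SPI1, which encodes the myeloid master factor PU.1, rose from 111 to 127 CPM (log2 fold change 0.19), and CEBPA, the granulocyte and monocyte factor, went from 216 to 211 CPM and did not pass. RUNX1, a factor of blood stem cells, fell from 231 ± 26.1 to 46.2 ± 2.65 CPM (log2 fold change -2.32, SE 0.08, adjusted p = 2.93e-12), IRF8, the monocyte-fate factor, from 214 to 60.1 CPM and MYB from 593 to 312 CPM. TAL1 and IRF4, factors of erythroid and of lymphoid and macrophage programs, rose from 0.0733 to 9.26 CPM and from 0.334 to 8.06 CPM.

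Monocyte and granule genes fell in most cases. The label was checked on some members of these lists, and others are not given. Without the drug the libraries carried the azurophil granule genes CTSG at 909, ELANE at 251 and PRTN3 at 122 CPM. MPO, also an azurophil granule gene, was low, at 4.05 CPM. SPI1 was at 111 CPM and the monocyte gene LYZ at 329 CPM. The mature monocyte and macrophage markers CD14 and CD163 were at 0.363 and 0.243 CPM. CTSG and CD163 were picked for this check after their values were seen. Of 27 monocyte and macrophage markers tested, 8 rose and 16 fell, and of the 19 at 1 CPM or more without the drug 4 rose and 14 fell. CCR2, the chemokine receptor of inflammatory monocytes, read 30.9, 29.4 and 31.7 CPM without the drug and 1.19, 1.25 and 0.506 CPM with it (log2 fold change -4.97, SE 0.18, adjusted p = 6.85e-12). ITGAM and ITGAX, the integrin chains CD11b and CD11c, fell from 27.6 to 7.75 CPM and from 14.2 to 2.25 CPM. CD14, the co-receptor for bacterial lipopolysaccharide, moved the other way: it read 0.167, 0.477 and 0.445 CPM without the drug and 20.1, 22.2 and 20.4 CPM with it (log2 fold change 5.87, SE 0.23, adjusted p = 1.13e-11). CD300E, a monocyte receptor, rose from 1.61 to 14.8 CPM. Azurophil granule and promyelocyte genes were 1 higher and 12 lower of 14 tested, with a median of -1.52. PRTN3, proteinase 3, fell from 122 ± 2.67 to 13.5 ± 0.450 CPM and MS4A3, a granulocyte progenitor marker, from 72.1 to 11.7 CPM, while LYZ, a monocyte marker that encodes lysozyme, rose from 329 to 678 CPM, and MPO went from 4.05 to 4.37 CPM and did not pass.

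Receptors and adhesion molecules of the same cells were also affected. Integrins and adhesion genes were 3 higher and 15 lower of 18 tested. ITGA4, the chain of the VLA-4 integrin that anchors leukaemia cells to stroma, fell from 794 ± 36.7 to 108 ± 16.1 CPM (log2 fold change -2.88, SE 0.10, adjusted p = 4.22e-12), and ICAM1, a ligand of leukocyte integrins, rose from 45.2 ± 9.66 to 165 ± 13.7 CPM. FLT3, the receptor kinase mutated in many acute myeloid leukaemias, fell from 26.4 to 3.78 CPM, and the receptor chains IL10RA and IL6ST rose from 15.6 to 68.1 CPM and from 19.6 to 81.4 CPM. Cytokine receptors as a list were 7 higher and 8 lower of 22 tested. S100A9, whose vector the series studies, read 9.38, 3.85 and 5.91 CPM without the drug and 15.0, 14.0 and 12.8 CPM with it in these empty vector cells (log2 fold change 1.11, SE 0.21, adjusted p = 1.74e-04). Its partner S100A8 rose from 0.819 to 4.13 CPM. The S100 list was 5 higher and 4 lower of 13 tested, and 3 higher and 3 lower of the 9 at 1 CPM or more without the drug.

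Markers of other cell types were examined in the same libraries. The lymphoid list had a summed level of 82.2 to 96.3 CPM without the drug and 46.0 to 47.3 CPM with it, most of it NKG7, a granule protein of cytotoxic cells, which fell from 75.0 to 32.1 CPM. Of its 6 tested members 1 rose, KLRD1 from 0.0111 to 3.24 CPM, and 2 fell, CD79A went from 8.06 to 7.41 CPM without passing, and CD3G and MS4A1 were at or near 0. The erythroid list summed to 1.80 to 2.42 CPM and 2.11 to 2.55 CPM, with 1 rise and 1 fall in 3 tested genes, KLF1 falling from 1.89 to 1.00 CPM and HBB at 0 in all 6 libraries. Platelet markers summed to 4.20 to 5.28 CPM and 6.12 to 7.48 CPM, with 1 rise in 4, that of GP1BA from 2.74 to 4.85 CPM, and PPBP at 0 in all 6. Epithelial markers summed to 5.16 to 8.68 CPM and 6.89 to 8.25 CPM, with 1 rise and 2 falls in 4: KRT17 rose from 2.15 to 5.13 CPM, KRT14 and MUC1 fell from 1.36 to 0.174 CPM and from 2.53 to 1.39 CPM, and KRT18 was at 0. Stromal markers summed to 13.7 to 15.3 CPM and 32.6 to 33.7 CPM, with 1 rise in 4, that of FAP from 10.7 to 29.7 CPM, while LUM was at 0 and COL1A2 and COL3A1 at or near 0.

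Antigen presentation genes went both ways. HLA-E, a non-classical class I molecule, rose from 149 ± 18.4 to 507 ± 9.84 CPM (log2 fold change 1.77, SE 0.07, adjusted p = 1.63e-11) and HLA-F from 1.32 to 7.42 CPM, while TAP2, the peptide transporter, fell from 128 ± 6.73 to 19.2 ± 2.41 CPM and NLRC5, the class I transactivator, from 28.8 to 8.01 CPM. The immunoproteasome subunits PSMB9 and PSMB10 fell 18.1-fold and 6.36-fold. The class I list was 6 higher and 9 lower of 15 tested. CIITA, the class II transactivator, read 11.2, 8.60 and 15.9 CPM without the drug and 2.02, 1.94 and 2.40 CPM with it and fell (log2 fold change -2.49, SE 0.19, adjusted p = 1.79e-08). The class II list was 7 higher and 1 lower of 11 tested, and the 1 lower member was CIITA itself. HLA-DRB1 rose from 16.5 to 23.1 CPM and HLA-DMA from 4.27 to 6.04 CPM. Of the 7 members at 1 CPM or more without the drug, 4 rose, 0 of them by at least 2-fold.

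Inflammatory signalling genes did not move as 1 block. The NF-kB list was 18 higher and 8 lower of 29 tested (median 0.93). Among the 24 members at 1 CPM or more without the drug 14 rose and 7 fell. With the S100A9 overexpression vector the median of the list was 0.26, and the difference between the vectors passed in 14 members. PTGS2, the inducible cyclooxygenase, rose from 1.05 to 6.84 CPM, and TNF fell from 8.89 to 3.81 CPM. CCL2, a monocyte chemokine, read 31.2, 9.15 and 5.81 CPM without the drug and 0.594, 0.690 and 0.616 CPM with it (log2 fold change -4.60, SE 0.53, adjusted p = 1.56e-06). CXCL10, an interferon-induced chemokine, read 13.2, 2.03 and 3.58 CPM without the drug and 0.665, 0.512 and 0.418 CPM with it, and EGR1, an immediate early factor, read 39.9, 10.0 and 5.19 CPM without the drug and 1.24, 1.34 and 1.78 CPM with it. In CCL2, CXCL10 and EGR1 untreated library 1 was the highest by a wide margin. Without it the log2 fold changes were -3.56, -2.40 and -2.39, and all 3 still passed. Interferon response genes were 12 higher and 19 lower of 37 tested, CMPK2 falling from 16.0 to 1.37 CPM and IRF7 rising from 3.76 to 11.2 CPM. AP-1 and immediate early genes were 11 higher and 6 lower of 22 tested: JUN rose from 15.6 to 43.9 CPM and KLF6 from 44.4 to 162 CPM, and FOS fell from 26.7 to 8.99 CPM and FOSL1 from 5.58 to 0.983 CPM.

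Feedback genes of the RAS-MAPK pathway were lower. They act as brakes that ERK itself switches on, and are used as a readout of its activity. Of 16 tested, 11 fell and 3 rose. DUSP6, the ERK phosphatase, read 65.9, 57.2 and 50.8 CPM without the drug and 3.80, 3.72 and 3.50 CPM with it (log2 fold change -3.98, SE 0.10, adjusted p = 3.06e-13). The ETS factor ETV4 fell from 14.0 ± 3.92 to 1.45 ± 0.118 CPM. SPRED3, an inhibitor of RAS signalling, rose from 1.19 to 14.2 CPM and PHLDA1 from 3.57 to 9.05 CPM. ERK activity was not measured.

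Amino acid supply genes fell while the stress factor DDIT3 rose. ATF4, which drives the amino acid response, read 368, 411 and 358 CPM without the drug and 399, 385 and 393 CPM with it and did not pass (adjusted p = 0.388). Its listed targets were 7 higher and 19 lower of 30 tested, 12 at least 2-fold lower. ALDH18A1, of proline synthesis, fell from 184 ± 8.54 to 14.6 ± 1.87 CPM (log2 fold change -3.66, SE 0.09, adjusted p = 1.63e-13) and SLC1A5, the glutamine transporter, from 366 ± 40.3 to 33.4 ± 1.62 CPM. DDIT3, which encodes CHOP, read 7.95, 8.02 and 7.79 CPM without the drug and 42.0, 42.0 and 42.2 CPM with it (log2 fold change 2.41, SE 0.06, adjusted p = 2.47e-13), and NUPR1, a stress-induced chromatin protein, rose from 0.270 to 5.81 CPM. Endoplasmic reticulum genes were 8 higher and 13 lower of 22 tested, with a median log2 fold change of -0.51. With the S100A9 overexpression vector the median of these genes was 0.04. The sensor kinase EIF2AK3 (PERK) rose from 26.3 to 73.0 CPM and HERPUD1 from 32.1 to 85.7 CPM. The folding factors HYOU1 and PDIA6 fell from 256 to 46.1 CPM and from 589.7 to 176 CPM.

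Most sterol and chaperone genes fell with the empty vector. Cholesterol genes were 2 higher and 20 lower of 24 tested, with FDPS, the farnesyl diphosphate synthase, falling from 381 ± 41.1 to 77.4 ± 4.18 CPM and MVD from 55.4 to 9.05 CPM. The early enzyme HMGCS1 fell less, from 181 to 99.3 CPM. The median log2 fold change of the cholesterol list was -0.93, and -0.53 with the S100A9 overexpression vector. The difference between the vectors passed in 15 of the 24 genes. Chaperones were 4 higher and 16 lower of 21 tested. Their median log2 fold change was -0.52, but 0.09 with the S100A9 overexpression vector, and the difference passed in 13 of the 21. The summed level of this list ranged from 6656 to 9425 CPM in the untreated empty vector libraries. HSPA8, the constitutive HSP70, read 2049, 1249 and 1005 CPM without the drug and 630.0, 636 and 618 CPM with it (log2 fold change -1.19, SE 0.18, adjusted p = 2.02e-05). Untreated library 1 was again the highest, and without it the log2 fold change was -0.85. FKBP4, an HSP90 co-chaperone, fell from 195 to 42.3 CPM. NRF2 and antioxidant genes were 6 higher and 10 lower of 21 tested: PRDX1, a peroxidase, fell from 421 ± 64.9 to 74.7 ± 3.57 CPM, and the ferritin gene FTH1 and NFE2L2, which encodes NRF2, rose from 240.1 to 544 CPM and from 98.8 to 227 CPM.

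Genes of glycolysis and of the respiratory chain fell more often than they rose, as did highly expressed genes in general. Glycolysis and hypoxia genes were 4 higher and 17 lower of 29 tested, 12 at least 2-fold lower: TPI1 fell from 408 ± 54.4 to 67.8 ± 3.55 CPM and PFKL, of the committing step, from 186 to 37.1 CPM, and GAPDH rose from 2762 to 3491 CPM. Nuclear genes of the respiratory chain were 17 higher and 47 lower of 76 tested (median -0.27), with NDUFB8 falling from 125 to 22.1 CPM and ATP5MC1 from 65.6 to 6.07 CPM. The share lower was 58.6% in the glycolysis list and 61.8% in the nuclear respiratory list. It was 60.5% in protein-coding genes at 100 CPM or more without the drug. At least 2-fold lower were 41.4%, 23.7% and 27.1%, in the same order. Of the mitochondrially encoded genes 2 rose and 6 fell of 13, none by 2-fold. TXNIP, which blocks glucose uptake, read 119, 107 and 117 CPM without the drug and 419, 413 and 434 CPM with it (log2 fold change 1.89, SE 0.05, adjusted p = 4.22e-13), and its relative ARRDC2 rose from 36.4 to 81.6 CPM.

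Protein turnover genes diverged between the proteasome and the lysosome. Proteasome subunits were 7 higher and 24 lower of 36 tested, with a median of -0.45. The share lower was 66.7%, near the 60.5% of protein-coding genes at 100 CPM or more without the drug (median -0.39). Lysosome, V-ATPase and autophagy genes were 29 higher and 13 lower of 43 tested, with a median of 0.55. The V-ATPase subunit ATP6V1H rose from 35.5 ± 0.824 to 104 ± 4.69 CPM and TFE3, a transcription factor of lysosome genes, from 23.0 ± 2.14 to 76.2 ± 2.89 CPM, whereas the hydrolases GLB1 and CTSH fell from 176 to 31.6 CPM and from 124 to 32.7 CPM. Among DNA methylation and Polycomb genes, 11 higher and 12 lower of 23 tested, the demethylase gene TET2 rose from 28.7 to 111 CPM, and DNMT3B and CBX7 fell from 31.1 to 8.02 CPM and from 9.79 to 2.02 CPM.

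Genes that handle cytarabine, a nucleoside drug of leukaemia therapy, fell more often than they rose, as did highly expressed genes in general. SLC29A1, the transporter ENT1 that takes up nucleosides (chromosome 6, 44219505 to 44234151, plus strand), read 139, 117 and 112 CPM without the drug and 5.04, 5.05 and 4.31 CPM with it and fell 25.6-fold (log2 fold change -4.68, SE 0.09, adjusted p = 4.80e-14). DCK, the kinase that activates cytarabine, rose from 88.1 to 123 CPM and CDA, the deaminase that inactivates it, from 31.8 to 38.2 CPM. The exporter ABCC4 fell from 68.7 to 10.1 CPM. The list was 3 higher and 9 lower of 14 tested. The share lower was 64.3%, near the 60.5% of protein-coding genes at 100 CPM or more without the drug. It was 50.1% in those at 10 to 100 CPM. At least 2-fold lower were 42.9%, 27.1% and 24.3%, in the same order. Uptake and sensitivity were not measured.

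**Figure D3:**
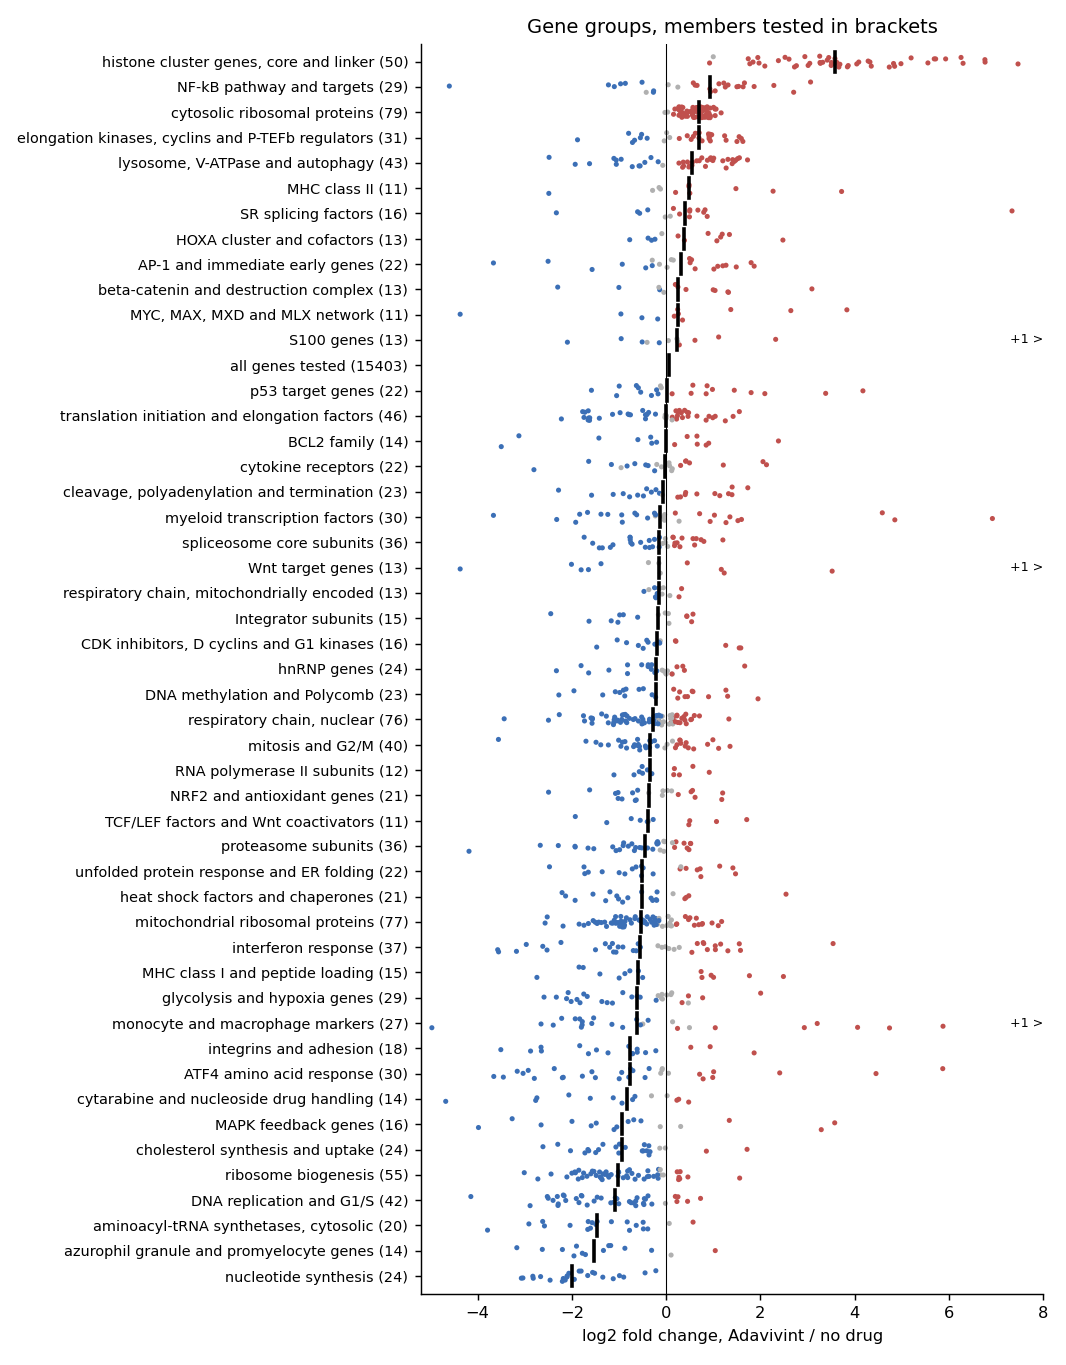
Log2 fold change with Adavivint (horizontal) of each tested member of the gene lists with at least 10 tested members (vertical, number in brackets), red for higher, blue for lower and grey for not passed, with a black bar at the list's median and, for comparison, the median of all genes tested. Histone cluster genes lie at the top, with a median of 3.58, and nucleotide synthesis genes at the bottom, with -2.01; 3 genes beyond the axis are counted at the right edge.

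Several of the genes with the largest falls act in blood cell signalling. RGS18, a brake on G protein signalling in myeloid cells and platelets, read 83.5, 74.4 and 76.1 CPM without the drug and 1.33, 1.25 and 0.792 CPM with it (log2 fold change -6.12, SE 0.15, adjusted p = 1.95e-13). ID3, an inhibitor of helix-loop-helix factors, read 10.4, 11.1 and 10.3 CPM without the drug and 0.143, 0.245 and 0.264 CPM with it (log2 fold change -5.59, SE 0.22, adjusted p = 1.69e-11). CD82, a tetraspanin, fell from 42.4 ± 1.82 to 1.06 ± 0.245 CPM, FYB1, an adaptor of immune receptors, from 75.7 ± 3.18 to 2.00 ± 0.399 CPM, SUCNR1, the succinate receptor, from 159 ± 8.56 to 4.29 ± 0.591 CPM, and LGALS12, a galectin, from 34.9 ± 11.3 to 1.30 ± 0.109 CPM. The groups did not overlap in these 6 genes, but this was a condition for naming the largest changes and held in 85.1% of all tested genes. FKBP1C, which is nearly identical to FKBP1A, also fell, but its reads may be shared and its value is uncertain. Other large falls were those of DHRS9, a retinol dehydrogenase, which fell 34.8-fold, OMA1, a protease of the inner mitochondrial membrane, from 34.3 to 1.30 CPM, and NEGR1, a cell adhesion gene, from 28.9 to 1.05 CPM. TERT, the telomerase catalytic subunit, named after its values were seen, fell from 3.87 to 0.0537 CPM. At 1 CPM or more without the drug and under 0.1 CPM with it were 31 genes, most of them still with a few counts.

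The reverse was common. Of 4224 genes in the table under 0.1 CPM without the drug, 455 were at 1 CPM or more with it, 104 of these at 5 CPM or more, 1087 were between 0.1 and 1 CPM, and 2682 remained under 0.1 CPM. In 439 of the 455 each treated library was at 0.5 CPM or more. With the S100A9 overexpression vector, 362 of the 455 also went from under 0.1 to at least 1 CPM. In untreated empty vector U937 cells 415 of them were under 0.1 CPM. Of the 455, 120 had no count in the 3 untreated libraries, and folds for such genes are lower bounds against a floor of 3 counts over the group.

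Among the genes that appeared were several known from other tissues. NPC1L1, the intestinal cholesterol transporter (chromosome 7, 44512535 to 44541315, minus strand), had 4 counts in all untreated libraries and 91.2, 98.8 and 111 CPM in the treated ones, a ratio of 4081 (95% counting interval 1594 to 14981). SLC5A5, the iodide transporter of the thyroid (chromosome 19, 17871973 to 17895174, plus strand), had no count without the drug and 24.5, 28.5 and 34.8 CPM with it, at least 1587-fold higher. GREM1, a BMP antagonist of stromal cells, had no count and then 20.1, 21.4 and 31.9 CPM, at least 1329.5-fold higher. COL2A1, the cartilage collagen, rose at least 398-fold to 6.37, 6.41 and 9.24 CPM, CYP7A1, the rate-limiting enzyme of bile acid synthesis in liver, at least 531-fold to 9.72, 8.97 and 10.8 CPM, and PRLHR, a neuropeptide receptor, at least 661-fold to 10.6, 12.2 and 13.8 CPM. The molybdenum cofactor sulfurase gene MOCOS had 3 counts without the drug, and its ratio was 1193 (95% counting interval 408 to 5790.1). TFCP2L1, FBLN5, SLC17A8, SLC36A2, PODN, RASL12, LDHAL6B, KBTBD13 and PPP3R2 completed the list of largest rises, all from 0 counts. MOCOS was picked after its values were seen.

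The position of these genes was then compared with that of genes that stayed silent. For each gene under 0.1 CPM without the drug the nearest gene on each side and strand that did not overlap it was taken. Only the 18464 genes of the count table with a position in GENCODE 29 on GRCh38 were searched. Of these, 18384 are protein-coding, so most noncoding genes could not be neighbours. A neighbour was called expressed where it lay within 100 kb and had 10 CPM or more without the drug. Of the 445 switched-on genes with a position, 221 (49.7%, exact 95% interval 44.9 to 54.4) had an expressed gene before them on the same strand. For the 102 at 5 CPM or more the share was 65.7%, for the 1075 at 0.1 to 1 CPM it was 31.3%, and for the 2596 that stayed silent it was 12.1% (10.9 to 13.5). Genes after them on the same strand were expressed in 25.8% and 18.9% of the switched-on and silent genes, those before on the opposite strand in 23.8% and 16.2%, and those after on the opposite strand in 33.5% and 16.8%. Of the 4 arrangements, the ratio of switched-on to silent shares was highest for genes before them on the same strand. With windows of 50 and 10 kb the same-strand share before switched-on genes was 38.7% and 15.7%, against 7.43% and 2.08% in silent genes, and with a level of 30 CPM it was 37.1% against 7.63%. Intervals treat genes as independent, which neighbouring genes are not, and this comparison was designed after the data were seen.

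Single genes show the arrangement. NPC1L1 begins 24.1 kb after the end of DDX56, an RNA helicase gene at 134 CPM without the drug. ERBB3, which encodes a receptor kinase of epithelia and was at 0.0833, 0.0596 and 0.116 CPM without and 29.7, 32.3 and 38.3 CPM with the drug, begins 32.1 kb after RPS26, a ribosomal protein gene at 404 CPM. CHDH, the choline dehydrogenase gene, went from 0.0333, 0 and 0.0775 to 35.1, 36.5 and 42.4 CPM and begins 20.7 kb after ACTR8. COL12A1 and MOCOS begin 31.6 and 6.96 kb after COX7A2 and ELP2. GREM1 follows SCG5 at 20.9 kb, a gene at 1.72 CPM without the drug, and so not counted as expressed, that itself rose to 45.1 CPM. These genes were picked to show the arrangement after their values were seen. Gene counts do not show where in a gene its reads lie or whether they are continuous with the neighbour's, and transcription past gene ends was not tested.

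**Figure D4:**
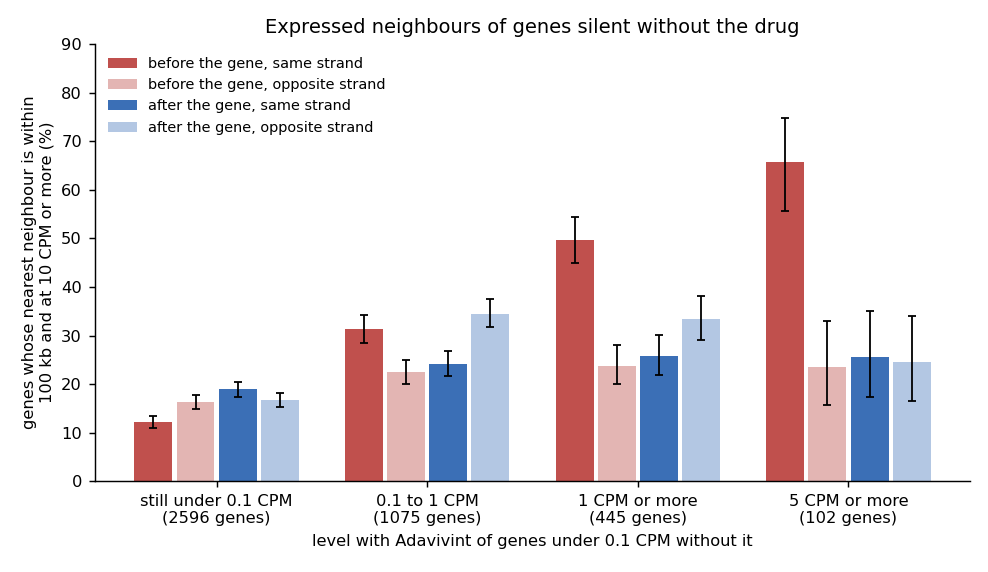
Share of genes (%) whose nearest neighbour on the given side and strand lies within 100 kb and was at 10 CPM or more without the drug, for genes under 0.1 CPM without the drug, grouped by their level with Adavivint (the last group is part of the one before it); bars are shares and lines exact 95% binomial intervals. The share of same-strand neighbours before the gene goes from 12.1% in genes that stayed silent to 65.7% in those at 5 CPM or more.

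Gene structure gave little beyond the level. Single-exon genes had a median log2 fold change of 0.91, but within genes at 10 to 100 CPM without the drug Spearman's rho of the change with exon number was 0.006, with gene length 0.08 and with transcript GC content -0.18, across 6896 genes. These correlations are across genes that share the 6 libraries and carry no test.

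The same drug was given to THP-1 cells with the S100A9 overexpression vector, so each gene's response can be compared in other libraries. Of the 7309 genes changed at least 2-fold with the empty vector, 7267 had the same sign with the overexpression vector and 7044 also changed there. Across all tested genes Pearson's r of the log2 fold changes was 0.94 and Spearman's rho 0.96. MYC had a log2 fold change of -3.90 with that vector against -4.37, MXD1 3.65 against 3.83, BCL2 -3.40 against -3.50 and SLC29A1 -4.48 against -4.68. The difference of the drug effects itself passed in 2968 genes (19.3%), higher with the overexpression vector in 1239 and lower in 1729, but it reached 1 on the log2 scale in 303 (1.97%). Without overexpression library 2 of the untreated group it passed in 1885. With library totals in place of TMM factors the split was 961 and 2379, so the balance of these differences depends on the scaling. Only 158 genes changed in opposite directions. Some list medians differed: those of chaperone and endoplasmic reticulum genes were -0.52 and -0.51 with the empty vector, and 0.09 and 0.04 with the overexpression vector.

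Some named genes responded differently with the 2 vectors. HSPA8 fell from 1434 to 628 CPM with the empty vector and went from 497 to 714 CPM with the overexpression vector (difference 1.71 on the log2 scale, SE 0.25, adjusted p = 9.89e-04). ID3 fell from 10.6 to 0.217 CPM and from 3.97 to 0.336 CPM (difference 2.04 on the log2 scale, SE 0.33, adjusted p = 0.00182). FOSL1 fell from 5.58 to 0.983 CPM with the empty vector and went from 2.27 to 1.25 CPM with the other (difference 1.65 on the log2 scale, SE 0.35, adjusted p = 0.00740). S100A8 rose from 0.819 to 4.13 CPM and from 0.400 to 5.58 CPM (difference 1.42 on the log2 scale, SE 0.39, adjusted p = 0.0221). HMGCS1 fell from 181 to 99.3 CPM and went from 88.6 to 111 CPM (difference 1.19 on the log2 scale, SE 0.16, adjusted p = 7.41e-04). In HSPA8, HMGCS1, ID3 and FOSL1 the level without the drug was itself lower with the overexpression vector, and for HSPA8 the empty vector libraries ranged from 1005 to 2049 CPM; the part of these starting levels in the difference was not tested.

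**Figure D5:**
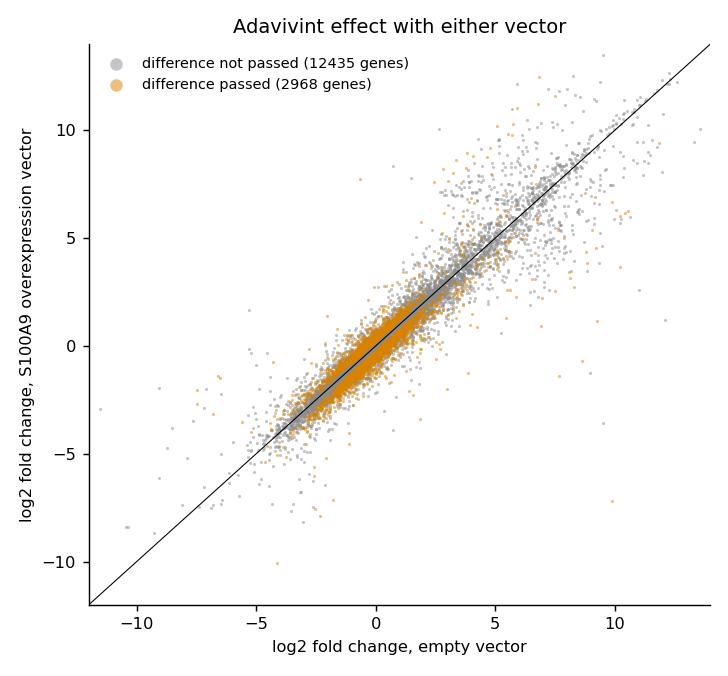
Log2 fold change with Adavivint in empty vector cells (horizontal) against that in cells with the S100A9 overexpression vector (vertical) for 15403 genes; the line marks equal effects and orange points are the 2968 genes whose difference passed. Most genes lie along the line, with Pearson's r of 0.94, and the points far from it lie mostly at the large changes.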

How the data were processed

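RNA of 18 libraries was sequenced, and 1 table of read counts for 18670 genes was deposited by the authors. HISAT2 2.0.4 is named in the submitters' processing notes. The counting tool, genome build, annotation, strand setting and RNA selection are not stated in the labels read here. The counts were used as deposited. The 12 THP-1 libraries were fitted together in edgeR 4.0.16 (R 4.3.3) with the quasi-likelihood test, TMM factors and edgeR's low-count filter (filterByExpr), which kept 15403 genes. The p-values were adjusted by Benjamini-Hochberg over all tested genes. CPM values use TMM-scaled library sizes, and the SE of a log2 fold change is its size divided by the square root of F.

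Alternatives were DESeq2 1.42.0, other scalings and filters, the 6 libraries alone, the replicate number as a block and each library left out in turn. The test was run on simulated counts of 15403 genes, with 100 genes changed 2-fold and 100 changed 4-fold. It recovered 97 and 99 of these and called 11 unchanged genes. In the data 85.3% of genes changed, so this simulation could not check the test or the scaling under so wide a change. Symbols were matched for 18642 genes, and 18464 have positions in GENCODE 29. The groups and gene lists were chosen with earlier results of these data known. Named genes are key genes of the lists, the 15 largest changes each way at 5 CPM or more with no overlap of groups, up to 2 each way per list, 5 each way for the difference between vectors, and markers at 1 CPM or more; clone, locus and readthrough names were left out. Intervals and floors cover counting error only.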

Additional observations from a re-analysis of the deposited data

Results flagged for a closer look

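Each of these results was picked out because the drug effect with the S100A9 overexpression vector differed from that with the empty vector by edgeR's test of the difference (adjusted p below 0.05), among named genes differing by at least 1 on the log2 scale. Values are the effect with the overexpression vector minus that with the empty vector. Genes with a larger or less negative effect with the overexpression vector were MYZAP (5.65), RPH3A (5.10), C13orf42 (4.43), GDA (4.06), GZMA (2.65), ID3 (2.04), HSPA8 (1.71), FOSL1 (1.65), S100A8 (1.42), SUCNR1 (1.24) and HMGCS1 (1.19). Genes with a smaller effect were KBTBD11-OT1 (-8.11), CHRNE (-3.19), KIAA0753 (-2.90), MROH7 (-2.55), NPC1L1 (-2.42) and KRT17 (-1.14). Fitted values of genes with a group at or near 0 counts depend on the prior count and are no bounds. GZMA, a granzyme, went from 9.10 to 1.32 CPM with the empty vector and from 2.25 to 2.04 CPM with the overexpression vector. KBTBD11-OT1 read 3.30, 51.7 and 85.4 CPM in the 3 treated empty vector libraries, an uneven rise in which library 1 was far below the others.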

How the results depend on the processing

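The count of changed genes, 13143, was 12999 with the replicate block, 13069 with DESeq2 and 12841 to 13103 with 1 of the 6 libraries left out. Of 274 named genes, 263 kept direction and call in every fit. The counts of genes whose drug effect differed between vectors ranged, with 1 library left out, from 1885 to 3724 in all, from 797 to 1713 higher and from 1088 to 2011 lower; the lowest values were without overexpression library 2. With the replicate block 2477 passed. The numbers do not pair the libraries, since correlations of same-numbered deviations were 0.035, 0.033 and -0.036.

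Genes that did not pass changed sign in some fits. With 1 library left out, AXIN2 ranged from -0.65 to 0.14 (0.03 without untreated library 2), CLDN7 from -0.24 to 0.49 (-0.11 without treated library 3), MPO from -0.019 to 0.27, CEBPA from -0.085 to 0.0018 (7.1e-04 without treated library 1) and SRSF3 from -0.11 to 0.087. With DESeq2, and likewise with its size factors in edgeR, CEBPA was 0.012 and SRSF3 0.027. Keeping only genes at 1 CPM in 3 libraries gave SRSF3 0.0098, a median of -0.89 for erythroid markers and of 0.62 for stromal markers. CCND2 lost its call in 5 fits and S100A6 in 7, CLK2 gained a call in 5, and TCF7, ACTA2 and KIAA0753 in 1 each. The shares of switched-on genes with an expressed neighbour before them were 38.7% at 50 kb, 15.7% at 10 kb and 37.1% at 30 CPM, choices made after the data were seen. Rises from 0 counts are limited by depth to lower bounds.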
